A study of Oryza sativa Japonica Group with 6 samples.

Results

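The genes described here encode enzymes that assimilate nitrate and ammonium in rice: a nitrate reductase, a nitrite reductase, 3 glutamine synthetases, 3 glutamate synthases and an asparagine synthetase. They were chosen by locus as a list of 9, and the deposited description of each locus names the enzyme it was listed for. All 9 reached an RPKM (reads scaled to gene length and library depth) of at least 1 in at least 2 libraries, as did 19438 of the 55800 loci in the table, and these 19438 were tested. Shoot material (stems with leaves) came from LTH rice, the japonica cultivar Lijiangxintuanheigu, as seedlings 2 weeks old that spent 24 h at 11, 13 or 25 °C, with 2 libraries at each temperature, which the series design calls biological replicates. The 25 °C seedlings are the warm reference, and no genotype or treatment other than temperature is named in the labels. Collection times are not given, so time of day and temperature cannot be told apart.

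Plants reduce nitrate to nitrite in the cytosol with nitrate reductase, a molybdenum enzyme, and nitrite to ammonium in the plastid with nitrite reductase. Glutamine synthetase then joins ammonium to glutamate, and glutamate synthase (GOGAT) returns glutamate by moving the amide group of glutamine to 2-oxoglutarate. In leaves the plastid glutamine synthetase GS2 and the ferredoxin-dependent Fd-GOGAT are best known for recapturing the ammonium released in photorespiration, while the cytosolic GS1 forms and NADH-GOGAT are associated with vascular tissue, roots and nitrogen transport. Asparagine synthetase passes the amide group to aspartate, and asparagine is a form in which nitrogen is stored and moved.

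Whole read numbers could be recovered from the RPKM values for 19437 of the tested loci, within a tolerance of 0.02 reads. Over all loci where they were recovered, tested or not, they added up to between 15568587 and 18520961 reads per library. The leaf marker RCA had 1015 and 650 RPKM at 11 °C, 4147 and 4905 at 13 °C, with 27020 and 36630 at 25 °C, and the chlorophyll-binding protein gene LOC_Os07g37240 ranged from 43.2 to 80.5 at the low temperatures and had 576 and 584 at 25 °C. A second chlorophyll-binding protein gene, LOC_Os01g41710, differed less, with 26.4 and 23.6 RPKM at 11 °C, 19.4 and 19.6 at 13 °C, with 33.0 and 46.1 at 25 °C. Of the root markers looked up, RCc3 was at or below 0.127 RPKM and OsNAR2.1 at or below 0.335, while OsLsi1 had 18.1 and 12.9 RPKM at 25 °C, 11.9 and 10.9 at 13 °C, with 0.814 and 0.668 at 11 °C. The phloem marker OsSUT1 ranged from 7.5 to 22.8 RPKM, and the part of any of these markers in the results was not tested. The shares of leaf, stem and vascular cells in each library were not measured, and in whole shoots fewer cells of a type and less RNA per cell cannot be told apart. The median difference of all tested loci was 0.13 between 11 and 25 °C and 0.12 between 13 and 25 °C on the log2 scale, and -0.01 and -0.03 under TMM-type scaling.

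At 11 °C, 2 of the 9 genes rose against 25 °C and 5 fell, while 50% of all tested loci were called in either direction, 28.6% higher and 21.4% lower (limma, adjusted p below 0.05). NADH-GOGAT2 rose 81.3-fold and NADH-GOGAT1 3.12-fold, whereas nitrite reductase, GS1;1, GS2, Fd-GOGAT and the asparagine synthetase AS1 fell. At 13 °C, 2 genes rose, 4 fell and 3 did not pass, against a background of 43.3% called, 26.3% higher and 17% lower. The nitrate reductase gene and NADH-GOGAT2 rose there, and nitrite reductase, GS1;1, Fd-GOGAT and AS1 fell. The nitrate reductase gene passed the filter only through the 13 °C libraries, so its rise there was fixed by that selection. So was its being lower at 11 than at 13 °C. AS1 passed only through the 11 and 25 °C libraries, so its being lower at 13 °C follows in part from that selection. The rise of NADH-GOGAT2 at 13 °C was lost under several alternatives given below. Between the low temperatures, 4 genes were higher at 11 than at 13 °C and 2 were lower, with 35.4% of all loci called, 17.2% higher and 18.2% lower. Without the filter on low values, and so with more loci tested, 3 of the 9 were called at 13 °C. The share of all loci called in that fit is not given here. The excess of higher over lower calls among all loci depended on the scaling: 5566 and 4153 at 11 against 25 °C became 5622 and 5607 under TMM-type and 5482 and 5695 under quantile scaling, and 5115 and 3299 at 13 against 25 °C became 5142 and 4958, or 4895 and 4921. The comparisons share libraries: both low temperatures were set against the same 25 °C pair.

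**Figure D1:**
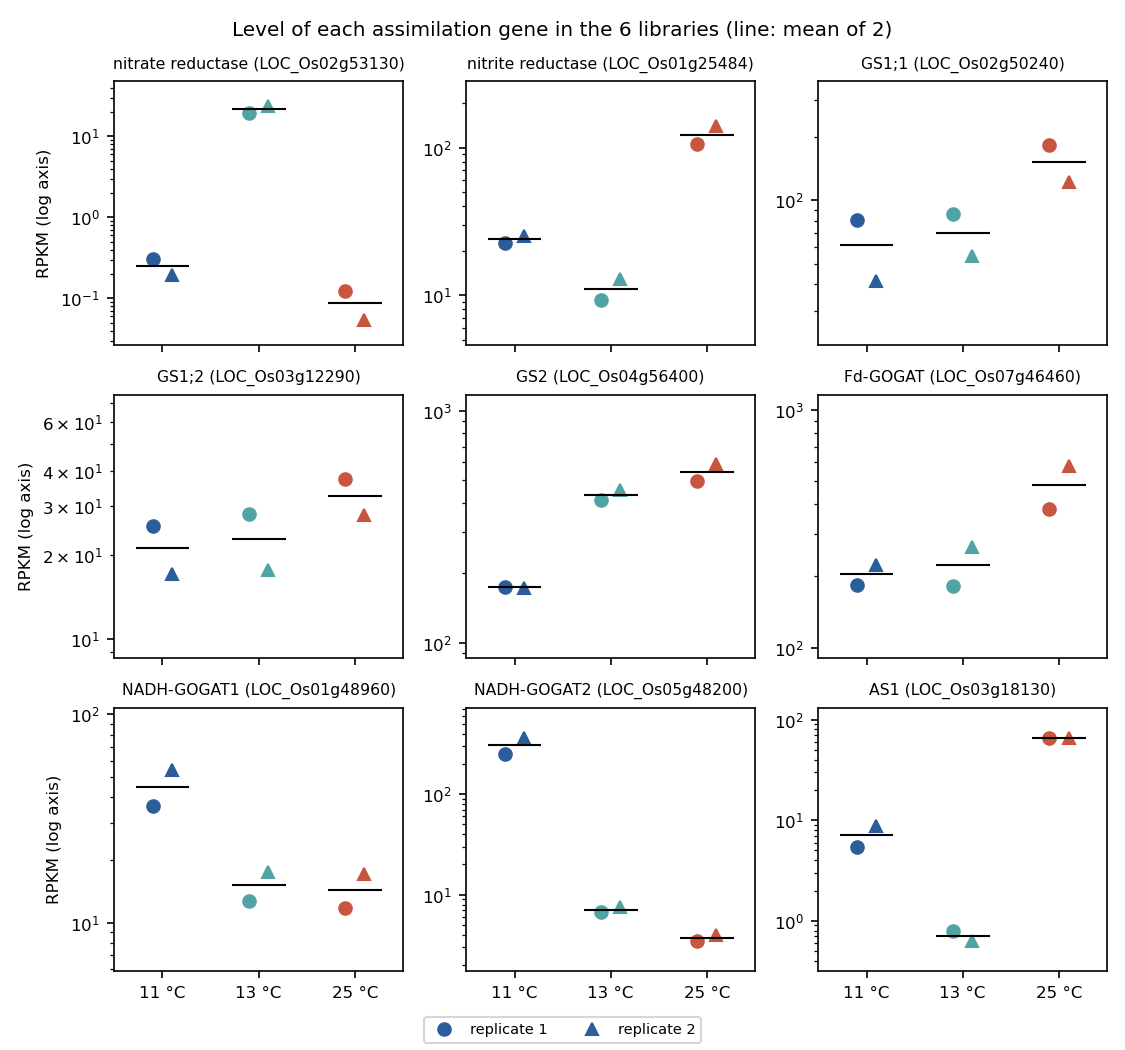
RPKM on a log axis (vertical) of each of the 9 genes at 11, 13 and 25 °C (horizontal), with circles for replicate 1, triangles for replicate 2 and a line for the mean of 2. NADH-GOGAT2 stands at 249 and 362 RPKM at 11 °C and below 8 elsewhere, and the nitrate reductase gene exceeds 19 RPKM at 13 °C alone.

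The nitrate reductase locus LOC_Os02g53130 (chromosome 2, 32513739 to 32517155, minus strand), described as an NAD(P)H form by its match to a barley protein, was present at 13 °C and near the limit of detection at the other temperatures. It had 19.5 and 23.8 RPKM at 13 °C, 0.307 and 0.192 at 11 °C, with 0.123 and 0.0534 at 25 °C. Behind these values were 1012 and 1363 reads in the 13 °C pair, 16 and 11 in the 11 °C pair, and 6 and 3 in the 25 °C pair. The 13 °C libraries lay far above the other 4. The log2 difference was 4.37 ± 0.22 (standard error) between 13 and 25 °C (adjusted p = 1.82e-05) and -4.17 ± 0.22 between 11 and 13 °C (adjusted p = 4.89e-05). Between 11 and 25 °C it was 0.20 with a 95% interval from -0.31 to 0.71, which did not pass. The locus passed the expression filter only through the 13 °C libraries. Its rise between 25 and 13 °C was the 76th largest of the 19438 loci, and its fall from 13 to 11 °C the 36th largest.

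Outside the 9 genes, 8 loci carried the name of one of these enzymes and 7 were tested: 2 rose and 3 fell at 11 °C, 1 fell at 13 °C, and 2 were higher and 2 lower at 11 than at 13 °C (medians 0.04, 0.15 and -0.05). Both rises at 11 °C, and the fall at 13 °C, were of loci that passed the filter on low values through a single temperature, so these counts support no direction. With a filter at RPKM 5, 2 falls and no rise were called at 11 °C, 0 loci at 13 °C, and 2 lower ones at 11 against 13 °C. Those described as nitrate reductases followed different courses. On chromosome 8, LOC_Os08g36480 (23033230 to 23038596) and LOC_Os08g36500 (23051421 to 23055575) are separated by 12825 bases and share the same best match, the NADH nitrate reductase NIA1, so reads may be divided between them. LOC_Os08g36480 had 24 and 18.7 RPKM at 25 °C, 15.6 and 13 at 13 °C, with 1.49 and 1.66 at 11 °C. It fell by 3.11 ± 0.24 from 25 to 11 °C and by 2.56 ± 0.24 from 13 to 11 °C on the log2 scale (adjusted p = 5.75e-05 and 0.000298). LOC_Os08g36500 fell by 1.87 ± 0.32 and 2.04 ± 0.32 in the same comparisons (adjusted p = 0.00185 and 0.00216). Neither passed between 13 and 25 °C (adjusted p = 0.11 and 0.693).

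A pair of weakly expressed nitrate reductase loci was higher at 11 °C. LOC_Os10g17780 had 3.56 and 5.85 RPKM at 11 °C and at most 0.558 in the other libraries, a rise of 1.91 ± 0.24 against 25 °C (adjusted p = 0.000436). LOC_Os01g49880 had 1.31 and 1.26 RPKM at 11 °C and at most 0.365 elsewhere, a rise of 0.95 ± 0.16 (adjusted p = 0.002). Both passed the filter through the 11 °C libraries alone. The RPKM of the 5 nitrate reductase loci summed to 37.6 and 27.1 at 25 °C, 49.5 and 47.1 at 13 °C, with 8.34 and 11.3 at 11 °C. LOC_Os02g53130 made up 39.4% and 50.5% of that sum at 13 °C, 3.68% and 1.69% at 11 °C, with 0.33% and 0.2% at 25 °C. The chromosome 8 loci together supplied most of it at 25 °C, and LOC_Os10g17780 had the largest share at 11 °C, 42.8% and 51.6%.

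Nitrite reductase, which uses reduced ferredoxin and siroheme to turn nitrite into ammonium, was lower at both low temperatures. LOC_Os01g25484 (chromosome 1, 14446910 to 14453474, plus strand) had 105 and 140 RPKM at 25 °C, 22.5 and 25.2 at 11 °C, with 9.23 and 12.8 at 13 °C. The 3 temperatures did not overlap, and 13 °C was the lowest. Mean RPKM fell 5.14-fold at 11 °C and 11.1-fold at 13 °C, with log2 differences of -2.30 ± 0.25 (adjusted p = 0.000218) and -3.36 ± 0.25 (adjusted p = 5.39e-05). Its fall at 13 °C ranked 157th of all loci. Nitrite reductase was higher at 11 than at 13 °C by 1.06 ± 0.25 (adjusted p = 0.0131), a call lost without replicate 2 at 11 °C (adjusted p = 0.0759) or replicate 1 at 13 °C (adjusted p = 0.0949). At 13 °C the nitrate reductase locus LOC_Os02g53130, tested only through its values there, was at its highest of the 3 temperatures and LOC_Os01g25484 at its lowest. The nitrate reductase locus LOC_Os08g36480 was highest at 25 °C, and neither it nor LOC_Os08g36500 passed between 13 and 25 °C. A second locus described as nitrite reductase, LOC_Os02g52730 (chromosome 2, 32254049 to 32257357), shares the best match of LOC_Os01g25484. LOC_Os02g52730 had 1.5 and 1.58 RPKM at 25 °C, from 24 and 29 reads, and was listed at 0 in the 4 low-temperature libraries. It passed the filter only through the 25 °C libraries. It lies 256382 bases from LOC_Os02g53130.

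Among the glutamine synthetases, GS2 had the highest RPKM in every library and fell at 11 °C. GS2 (LOC_Os04g56400, chromosome 4, 33624332 to 33631095, minus strand), the plastid form, had 496 and 586 RPKM at 25 °C, 411 and 456 at 13 °C, with 175 and 172 at 11 °C. The 11 °C libraries lay well below all others. GS2 fell 3.12-fold at 11 against 25 °C, a log2 difference of -1.63 ± 0.22 (adjusted p = 0.000672), and was lower by 1.31 ± 0.22 at 11 than at 13 °C (adjusted p = 0.00332). Between 13 and 25 °C the difference of -0.32 did not pass, with an interval from -0.83 to 0.20.

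GS1;1 (LOC_Os02g50240, chromosome 2, 30674776 to 30678659, minus strand), a cytosolic form known in rice for its part in nitrogen remobilization, was lower at both low temperatures. It had 183 and 123 RPKM at 25 °C, 85.8 and 54.5 at 13 °C, with 80.8 and 41.4 at 11 °C. Replicate 1 was higher than replicate 2 at each temperature, and the low temperatures overlapped each other but not 25 °C. The log2 differences against 25 °C were -1.36 ± 0.38 at 11 °C (adjusted p = 0.0179) and -1.12 ± 0.38 at 13 °C (adjusted p = 0.0428). Omitting replicate 2 at 11 °C or replicate 1 at 25 °C ended the call at 11 °C (adjusted p = 0.114 and 0.101). At 13 °C it was lost without replicate 2 at 13 °C or replicate 1 at 25 °C (adjusted p = 0.216 and 0.201) and under TMM-type or quantile scaling (adjusted p = 0.0737 and 0.0788). Between 11 and 13 °C GS1;1 did not pass, with a difference of -0.24 and an interval from -1.10 to 0.63.

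GS1;2 (LOC_Os03g12290, chromosome 3, 6457910 to 6462727, minus strand), the cytosolic form that assimilates ammonium in rice roots, passed in none of the 3 comparisons. It had 37.6 and 27.8 RPKM at 25 °C, 28 and 17.7 at 13 °C, with 25.4 and 17.1 at 11 °C, and again replicate 1 was the higher at each temperature. The interval of its difference at 11 against 25 °C ran from -1.32 to 0.10. Another cytosolic locus, GS1;3 (LOC_Os03g50490), had 1 read in 2 of the 6 libraries and none in the other 4. Summed over GS1;1, GS1;2 and GS2, glutamine synthetase RPKM was 717 and 736 at 25 °C, 525 and 528 at 13 °C, with 281 and 231 at 11 °C. GS2 held 69.3% and 79.6% of the sum at 25 °C, 78.3% and 86.3% at 13 °C, with 62.2% and 74.6% at 11 °C. Its share at 25 °C overlapped that at each low temperature, while the shares at 11 and 13 °C did not overlap each other.

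**Figure D2:**
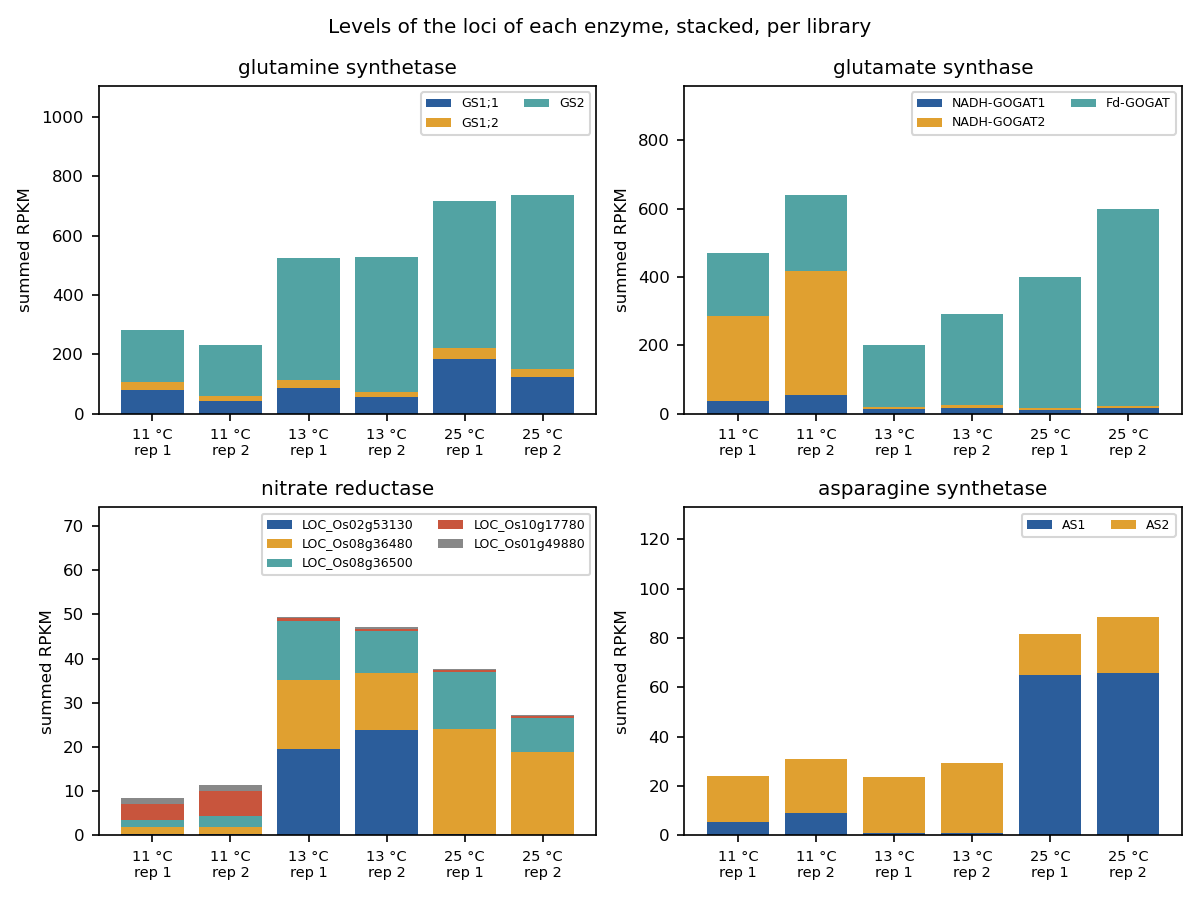
Stacked RPKM (vertical, from 0) of the loci of glutamine synthetase, glutamate synthase, nitrate reductase and asparagine synthetase in each of the 6 libraries (horizontal). NADH-GOGAT2 is the tallest segment of the glutamate synthase bar at 11 °C and is barely visible at 13 and 25 °C, and LOC_Os02g53130 adds a segment to the nitrate reductase bars at 13 °C.

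The glutamate synthase genes changed over at 11 °C. NADH-GOGAT2 (LOC_Os05g48200, chromosome 5, 27622654 to 27636451, plus strand), a plastid enzyme that takes electrons from NADH, had 3.5 and 4.01 RPKM at 25 °C, 6.72 and 7.5 at 13 °C, with 249 and 362 at 11 °C. In reads, the 25 °C pair held 387 and 510, the 13 °C pair 789 and 973, and the 11 °C pair 29322 and 47047. The 11 °C libraries lay far above the other 4, which did not overlap between 13 and 25 °C. Its log2 difference was 5.99 ± 0.25 at 11 against 25 °C (adjusted p = 8.59e-06), the 24th largest rise of all tested loci. Against 13 °C the difference was 5.22 ± 0.25 (adjusted p = 4.89e-05), the 7th largest, and mean RPKM differed 43-fold. By mean level NADH-GOGAT2 ranked 12355th of 19438 loci at 25 °C and 156th at 11 °C. At 13 °C it was 1.89-fold above 25 °C (0.77 ± 0.25, adjusted p = 0.0362). That smaller rise did not pass without either replicate at 13 °C (adjusted p = 0.0947 and 0.157), without either replicate at 25 °C (adjusted p = 0.127 and 0.0683), with the other temperature left out of the fit (adjusted p = 0.0546) or under quantile scaling (adjusted p = 0.0606).

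NADH-GOGAT1 (LOC_Os01g48960, chromosome 1, 28091208 to 28102930, minus strand), the form studied in rice roots and developing leaves, rose at 11 °C by less. It had 36.2 and 53.9 RPKM at 11 °C, 12.7 and 17.6 at 13 °C, with 11.8 and 17.1 at 25 °C. The low-temperature rise was seen at 11 °C and not at 13 °C, whose libraries overlapped those at 25 °C. The log2 difference was 1.57 ± 0.30 against 25 °C (adjusted p = 0.00315) and 1.5 ± 0.30 against 13 °C (adjusted p = 0.00634). Between 13 and 25 °C it was 0.07, with an interval from -0.62 to 0.76, and -0.11 under TMM-type scaling.

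Fd-GOGAT (LOC_Os07g46460, chromosome 7, 27723015 to 27738539, minus strand), the leaf form that draws on photosynthetic electrons, was lower at both low temperatures. It had 383 and 578 RPKM at 25 °C, 182 and 265 at 13 °C, with 184 and 223 at 11 °C. Replicate 2 was the higher at each temperature, and the 11 °C values lay within the range at 13 °C. Against 25 °C the log2 difference was -1.21 ± 0.30 at 11 °C (adjusted p = 0.0108) and -1.10 ± 0.30 at 13 °C (adjusted p = 0.019), falls of 2.36- and 2.15-fold. The first was lost without replicate 1 at 11 °C (adjusted p = 0.0661), and the second without replicate 1 at 13 °C (adjusted p = 0.142) or replicate 2 at 25 °C (adjusted p = 0.0767). The summed RPKM of the 3 glutamate synthase genes was 398 and 600 at 25 °C, 201 and 290 at 13 °C, with 469 and 639 at 11 °C, so the 11 °C and 25 °C sums overlapped. Fd-GOGAT made up 96.2% and 96.5% of the sum at 25 °C, 90.3% and 91.4% at 13 °C, with 39.2% and 34.9% at 11 °C. NADH-GOGAT2 held 53.0% and 56.7% at 11 °C, 3.34% and 2.58% at 13 °C, with 0.88% and 0.67% at 25 °C.

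AS1 (LOC_Os03g18130, chromosome 3, 10119873 to 10124384, minus strand), an asparagine synthetase that uses glutamine as its amide donor, had its highest level at 25 °C and its lowest at 13 °C. It had 65 and 65.8 RPKM at 25 °C, 5.47 and 8.81 at 11 °C, with 0.787 and 0.635 at 13 °C, the last from 37 and 33 reads. The 3 temperatures did not overlap. Mean RPKM fell 9.17-fold at 11 °C (-3.06 ± 0.27, adjusted p = 8.54e-05) and 92-fold at 13 °C (-5.28 ± 0.27, adjusted p = 1.82e-05). The fall at 13 °C was the 24th largest of all loci. AS1 was higher at 11 than at 13 °C (2.22 ± 0.27, adjusted p = 0.000748). It passed the filter on low values only through the 11 and 25 °C libraries. Its being lower at 13 °C follows in part from that selection. The related gene AS2 (LOC_Os06g15420, chromosome 6, 8758769 to 8765753) had 16.7 and 22.9 RPKM at 25 °C, 22.6 and 28.5 at 13 °C, with 18.3 and 22 at 11 °C, and passed in no comparison (adjusted p = 0.919 at 11 °C and 0.282 at 13 °C against 25 °C). AS1 held 79.6% and 74.2% of the summed RPKM of the pair at 25 °C, 23.0% and 28.6% at 11 °C, with 3.37% and 2.18% at 13 °C.

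**Figure D3:**
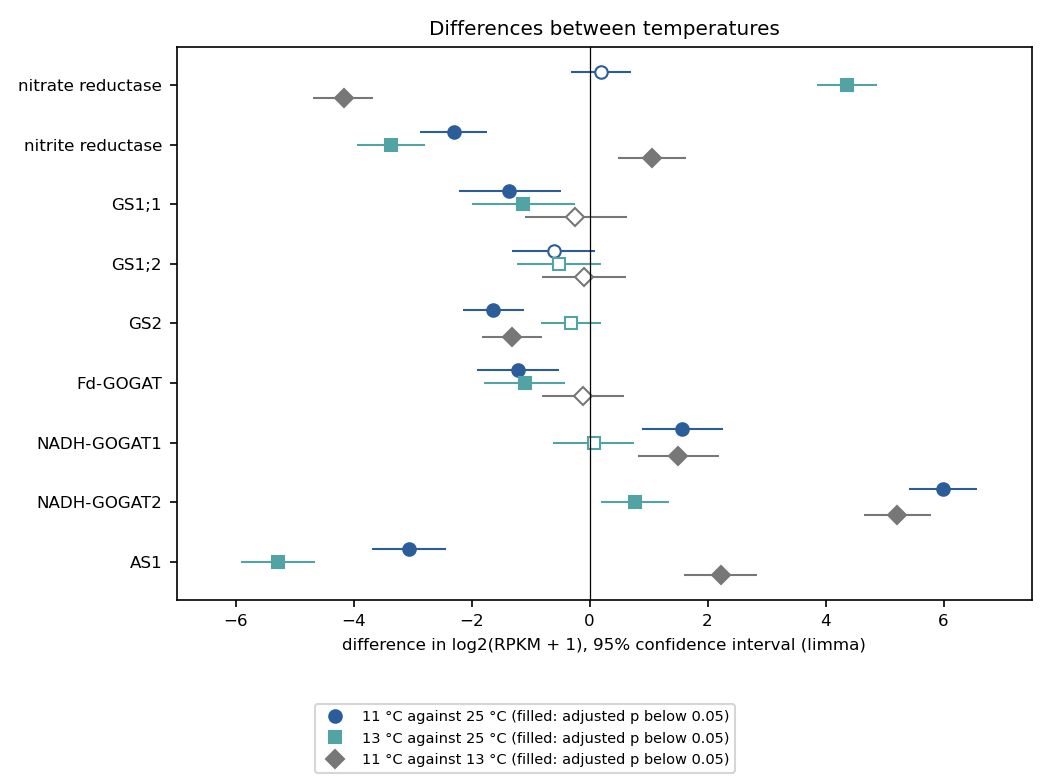
Difference in log2(RPKM + 1) (horizontal) for each gene (vertical) at 11 against 25 °C, 13 against 25 °C and 11 against 13 °C, with 95% confidence intervals from limma; filled symbols have an adjusted p below 0.05. NADH-GOGAT2 has the highest value at 11 against 25 °C, 5.99, and AS1 the lowest at 13 against 25 °C, -5.28.

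The order of the temperatures differed between genes. GS2 ran from 25 to 13 to 11 °C in falling level, with 13 and 25 °C not passing. GS1;1, GS1;2 and Fd-GOGAT had the same order of means, but their low temperatures could not be separated. Nitrite reductase and AS1 ran from 25 to 11 to 13 °C, NADH-GOGAT2 from 11 to 13 to 25 °C, and NADH-GOGAT1 likewise with 13 and 25 °C not separated, and the nitrate reductase gene was highest at 13 °C.

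The transport genes around the enzymes, taken by words in the descriptions, numbered 104 loci, of which 64 were tested. At 11 °C, 14 rose, 29 fell and 21 did not pass, with a list median of -0.58. At 13 °C, 15 rose and 16 fell, with a median of 0.03, and between 11 and 13 °C 15 were higher and 22 lower. The largest rises at 11 °C were those of LOC_Os01g65169 and LOC_Os01g65140, both on chromosome 1, described as NRT1/PTR family proteins 5.10 and 5.12. LOC_Os01g65169 had 0.064 and 0.139 RPKM at 25 °C, 15.2 and 21.2 at 13 °C, with 79.1 and 137 at 11 °C, rising by 6.58 ± 0.31 at 11 °C and 4.11 ± 0.31 at 13 °C (adjusted p = 9.03e-06 and 5.97e-05). LOC_Os01g65140 reached 52.8 and 73.4 RPKM at 11 °C (5.95 ± 0.27 against 25 °C), from 0 and 0.0531 at 25 °C. Both loci passed the filter on low values only through the low-temperature libraries, so their direction against 25 °C follows in part from that selection. Substrates of these proteins are not given in the table, and members of the family also carry peptides and hormones.

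Falls among the transport genes included LOC_Os12g12934, family member 4.3 (-3.50 ± 0.24, adjusted p = 3.62e-05), and LOC_Os02g46460, family member 7.3 (-3.38 ± 0.23), whose Arabidopsis counterpart loads nitrate into the xylem. LOC_Os10g40600, described as family member 6.3 after the Arabidopsis nitrate transporter and sensor, was higher at 11 than at 13 °C by 3.23 ± 0.22 (adjusted p = 0.000106), with mean RPKM of 15.1 and 0.717. It passed the filter on low values only through the 11 °C libraries, so its being higher there was fixed by that selection. Another locus with the same description and best match, LOC_Os08g05910, was above RPKM 1 in every library and lowest at 11 °C. It had 6.68 and 7.02 RPKM at 11 °C, 27.96 and 25.6 at 13 °C, with 26.7 and 21.9 at 25 °C. The ammonium transporter gene AMT1 member 1 (LOC_Os04g43070), picked out here after its values were seen, had 300.2 and 253 RPKM at 25 °C, 96.1 and 88.2 at 13 °C, with 96.3 and 114 at 11 °C. It fell by 1.39 at 11 °C and 1.57 at 13 °C (adjusted p = 0.00127 and 0.00082). AMT2 member 1 (LOC_Os05g39240) ran the other way, so the direction differed between ammonium transporter genes. It had 51.8 and 60.9 RPKM at 11 °C, 12.01 and 13.6 at 13 °C, with 5.64 and 6.17 at 25 °C.

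Electron and cofactor supply genes moved in both directions. Of 20 tested, 6 rose, 7 fell and 7 did not pass at 11 °C (median -0.43), and 5 rose and 5 fell at 13 °C (median 0.12). The leaf-type ferredoxin-1 gene LOC_Os08g01380, a donor to nitrite reductase and Fd-GOGAT, had a mean of 2380 RPKM at 25 °C, 2870 at 13 °C and 407 at 11 °C, a fall of 2.59 ± 0.36 at 11 against 25 °C (adjusted p = 0.000675). Another ferredoxin-1 locus, LOC_Os06g28050, named from its match to a bacterial protein, had 61.2 and 68.2 RPKM at 11 °C and 21.3 and 27.5 at 13 °C but 0.424 and 0.0194 at 25 °C. Its rise was 5.77 ± 0.26 at 11 °C and 4.39 ± 0.26 at 13 °C (adjusted p = 9.03e-06 and 2.6e-05). It passed the filter on low values only through the low-temperature libraries, so its direction against 25 °C follows in part from that selection. Ferredoxin-NADP reductase LOC_Os06g01850, described as a leaf isozyme, was highest at 13 °C, with a mean of 592 RPKM against 97.9 at 25 °C and 157 at 11 °C (2.67 ± 0.39 against 25 °C, adjusted p = 0.00115). Another locus with the same description, LOC_Os02g01340, had 607 and 512 RPKM at 25 °C, 662 and 673 at 13 °C, with 256 and 246 at 11 °C. The molybdopterin synthase gene LOC_Os02g04740, which serves the cofactor of nitrate reductase, rose by 2.13 ± 0.57 at 11 °C (adjusted p = 0.0155). That call was lost without replicate 2 at 11 °C (adjusted p = 0.0842), without replicate 1 at 25 °C (adjusted p = 0.0837) or with no filter on low values (adjusted p = 0.0661), and leaving out these libraries left 7 and 8 of the list's 13 calls.

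Genes of ammonium release, 18 tested, had 4 rises and 5 falls at 11 °C, 5 and 4 at 13 °C, and 1 higher and 7 lower at 11 against 13 °C. The medians were 0.04, 0.34 and -0.41, and the 9 calls at 11 °C became 4 without replicate 1 and 5 without replicate 2 at that temperature. Glycine decarboxylase, the mitochondrial complex that frees ammonium in photorespiration, did not move as a unit. One P-protein gene, LOC_Os01g51410, had means of 1160 RPKM at 25 °C, 404 at 13 °C and 312 at 11 °C, falls of 1.51 ± 0.25 and 1.90 ± 0.25 (adjusted p = 0.002 and 0.000559). Another, LOC_Os06g40940, had means of 484, 479 and 325 RPKM at 25, 13 and 11 °C and passed in no comparison. The H-protein gene LOC_Os10g37180 had 808 and 781 RPKM at 13 °C, 53.4 and 46.9 at 11 °C, with 55.8 and 32.5 at 25 °C. It rose by 4.19 ± 0.28 at 13 °C (adjusted p = 3.5e-05) and its difference of 0.23 at 11 °C did not pass (adjusted p = 0.525). Threonine dehydratase (LOC_Os03g50510), the first enzyme of isoleucine synthesis, rose by 2.91 ± 0.27 at 11 °C, and the phenylalanine ammonia-lyase gene LOC_Os02g41630 fell by 2.89 ± 0.31 (adjusted p = 0.000107 and 0.000198). Another lyase gene, LOC_Os12g33610, was highest at 13 °C (2.20 ± 0.21 against 25 °C).

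Of 25 tested genes of glutamate and amino group transfer, 5 rose and 7 fell at 11 °C, 5 rose and 4 fell at 13 °C, and 4 were higher and 4 lower at 11 against 13 °C (medians 0.1, -0.01 and -0.3). Counts in this list depended on single libraries: the 12 calls at 11 °C became 7 and 6 without replicates 1 and 2 at 11 °C, the 9 at 13 °C became 5 without replicate 1 at 25 °C, and the 8 between low temperatures became 3 without either 11 °C library, 5 without replicate 1 and 4 without replicate 2 at 13 °C. Glutamate dehydrogenase 2 (LOC_Os04g45970), a mitochondrial enzyme that can release ammonium from glutamate, had means of 23.3 RPKM at 11 °C, 4.62 at 13 °C and 6.25 at 25 °C (1.75 ± 0.26 against 25 °C, adjusted p = 0.000925). Glutamate decarboxylase 1 (LOC_Os03g13300), which makes the amino acid GABA from glutamate, rose by 3.20 ± 0.26 at 11 °C and 3.63 ± 0.26 at 13 °C (adjusted p = 6.85e-05 and 5e-05). LOC_Os03g13300 passed the filter on low values only through the low-temperature libraries, so its direction against 25 °C follows in part from that selection. The aminotransferase gene LOC_Os05g39770, described as alanine-glyoxylate aminotransferase 2 homolog 3, fell by 4.41 ± 0.30 and 3.34 ± 0.30, from a mean of 40.4 RPKM at 25 °C. It passed the filter only through the 13 and 25 °C libraries, with 0.903 and 0.897 RPKM at 11 °C. Its fall at 11 °C follows in part from that selection. Glutamate-glyoxylate aminotransferase 1 (LOC_Os07g01760), a peroxisomal photorespiratory enzyme, was lower by 1.52 ± 0.25 at 11 than at 13 °C (adjusted p = 0.00299).

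Enzymes that spend the amide group of glutamine, 19 tested, had 7 rises and 4 falls at 11 °C (median 0.29) and 6 and 3 at 13 °C (median 0.52). At 11 against 13 °C, 3 were higher and 3 lower, and these 6 calls became 3 without replicate 2 at 13 °C. A pair of loci for amidophosphoribosyltransferase 1, which starts purine synthesis, moved in opposite directions. LOC_Os01g65260 fell from a mean of 154 RPKM at 25 °C to 29.1 at 13 °C and 9.41 at 11 °C (-3.89 ± 0.21 at 11 °C, adjusted p = 1.55e-05), and LOC_Os05g35580 rose from 0.526 to 5.31 and 13.8 RPKM (3.28 ± 0.25, adjusted p = 4.94e-05). LOC_Os05g35580 passed the filter on low values only through the low-temperature libraries, so its direction against 25 °C follows in part from that selection. The GMP synthase gene LOC_Os08g23730 rose by 2.28 ± 0.28 at 11 °C (adjusted p = 0.00042).

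Genes that supply carbon skeletons, 36 tested, had 10 rises and 6 falls at 11 °C (median 0.27) and 14 and 6 at 13 °C (median 0.44), while 5 were higher and 10 lower at 11 against 13 °C. The 20 calls at 13 °C became 12 and 13 without replicates 1 and 2 at that temperature. Phosphoenolpyruvate carboxylase kinase 1 (LOC_Os02g41580), which phosphorylates and activates the carboxylase, had 2.12 and 2.69 RPKM at 25 °C, 34.0 and 44.1 at 13 °C, with 71.8 and 82.0 at 11 °C. Its rise was 4.52 ± 0.23 at 11 °C and 3.55 ± 0.23 at 13 °C (adjusted p = 1.29e-05 and 3.42e-05). A regulatory subunit of NAD isocitrate dehydrogenase (LOC_Os04g40310) rose by 2.48 ± 0.24 at 11 °C (adjusted p = 0.000129). Chloroplast malate dehydrogenase loci differed: LOC_Os07g43700 fell by 4.52 ± 0.33 at 11 °C (adjusted p = 4.18e-05), and LOC_Os08g33720 rose by 4.84 ± 0.23 at 13 °C (adjusted p = 1.53e-05).

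Of 6 tested regulators of nitrogen responses, 2 rose and 3 fell at 11 °C, 1 rose and 4 fell at 13 °C, and 1 was higher and 2 were lower at 11 against 13 °C (medians -1.01, -1.17 and -0.02). Both rises at 11 °C were lost without replicate 2 at 11 °C or replicate 1 at 25 °C, leaving 3 calls. NLP3 (LOC_Os01g13540), of the family of nitrate-responsive transcription factors, fell by 2.73 ± 0.21 at 11 °C, from a mean of 128 RPKM to 18.4 (adjusted p = 5.61e-05). The homolog of P-II (LOC_Os05g04220), a plastid protein that binds glutamine in plants, had log2 differences of -2.36 ± 0.32 at 11 °C and -1.84 ± 0.32 at 13 °C (adjusted p = 0.000669 and 0.00264). One of the loci described as NLP1, LOC_Os09g37710, was highest at 13 °C, rising there by 2.58 ± 0.27 (adjusted p = 0.000231). The other, LOC_Os03g03900, was highest at 25 °C, with 28.6 and 42.5 RPKM. It had 6.67 and 9.25 at 13 °C, with 9.85 and 12.9 at 11 °C.

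**Figure D4:**
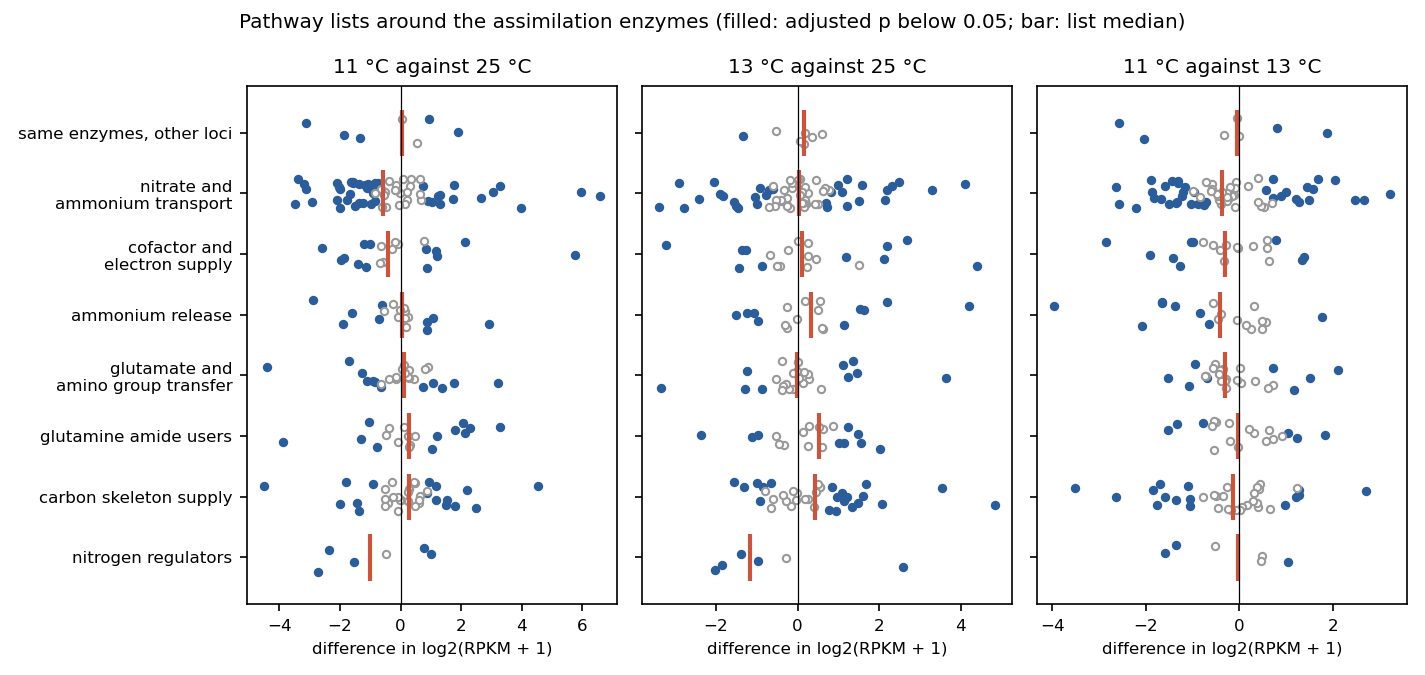
Difference in log2(RPKM + 1) (horizontal) of every tested locus of the 8 pathway lists (vertical) in the 3 comparisons, with filled points for an adjusted p below 0.05 and a bar at each list's median. Lists hold both rises and falls, and the transport list has its median at -0.58 at 11 against 25 °C.

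The loci most alike in pattern were sought for 3 of the genes, by the root-mean-square difference between log2 profiles over the 6 libraries, each centred on its own mean. For GS2 the nearest of 6763 described loci with a mean RPKM of at least 10 were LOC_Os01g70820, PsbP domain-containing protein 7 of the chloroplast, at 0.07, LOC_Os02g01030, a FAM10 family protein, at 0.09, and LOC_Os08g07440, an AP2-like factor, at 0.11. For the nitrate reductase gene they were soluble starch synthase 1 (LOC_Os06g06560) at 0.19, the PHR1-like 1 gene (LOC_Os06g49040) at 0.22 and the glycine cleavage H-protein gene LOC_Os10g37180 at 0.23. Soluble starch synthase 1 had 101 and 153 RPKM at 13 °C and at most 5.62 elsewhere. For AS1 they were a xyloglucan endotransglucosylase gene (LOC_Os06g22919) at 0.33, the ESCAROLA-type DNA-binding protein gene LOC_Os08g02490 at 0.35 and a dihydroflavonol reductase gene (LOC_Os03g08624) at 0.37. These distances rest on 6 libraries that fall into 3 groups, and all loci of a library share its depth and sampling.

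**Figure D5:**
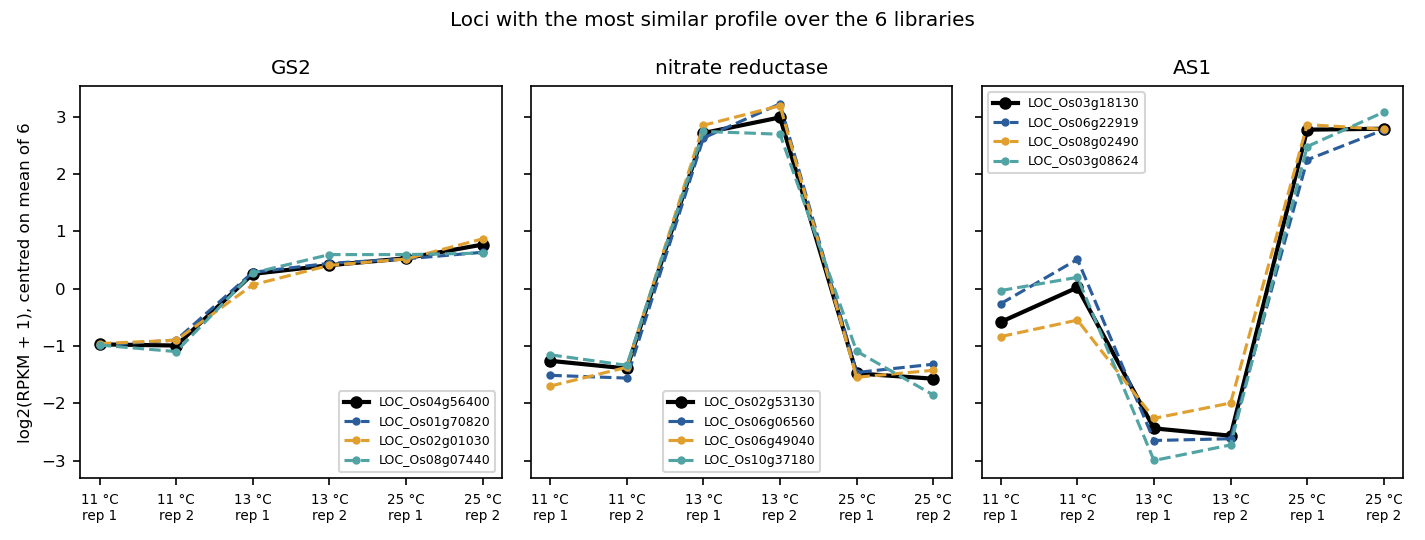
Log2(RPKM + 1) centred on each locus's mean of 6 libraries (vertical) in each library (horizontal) for GS2, the nitrate reductase gene and AS1 (black) and the 3 loci nearest to each (dashed). The nitrate reductase gene and its neighbours peak in the 13 °C libraries, and AS1 and its neighbours are lowest there.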

How the data were processed

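The authors deposited one table of RPKM values, 1 column per library, for 55800 loci; reads were aligned with TopHat2 2.0.12, per the submitters' processing notes. The genome build, the annotation, the read counter, its use of strand and its treatment of reads shared by paralogs are unstated in the sources used here. Coordinates are the table's own. No sequences of these loci were used here. Values were taken as log2(RPKM + 1) and fitted with limma 3.58.1 in R 4.3.3, all 6 libraries in 1 model with a mean-variance trend, over the 19438 loci that reached an RPKM of 1 in 2 or more libraries. Adjusted p-values are Benjamini-Hochberg over all tested loci, and a locus is called below 0.05. The unit of the ± after a log2 difference is the standard error. Recovered reads are the smallest whole numbers that fit a locus's values, and RPKM gives no counting interval of its own. The fit was checked on simulated data. The members and lists were chosen with earlier results of these data known. Lists were drawn by whole words in the descriptions, and from each the loci with the 2 largest rises and falls per comparison could be named. Of the markers looked up, OsLsi2 and the shoot meristem marker OSH1 had no values under the locus names used, so neither could be read. Alternatives were pseudocount, filter, scaling, trend, samples in the fit, replicate block and leaving out each library.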

Additional observations from a re-analysis of the deposited data

How the results depend on the processing

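The calls of NADH-GOGAT1 and NADH-GOGAT2 at 11 °C, GS2 at 11 °C, AS1 in all 3 comparisons and nitrite reductase against 25 °C held under every alternative run. So did those of the nitrate reductase gene at 13 °C, but it was tested only because its 13 °C values are high, so this is no sign of stability. AS1 passed the filter only through the 11 and 25 °C libraries, so its comparisons with 13 °C are in part fixed likewise. Without a filter on low values, 3 of the 9 genes were called at 13 against 25 °C, with GS1;1 (adjusted p = 0.119), Fd-GOGAT (0.0619) and NADH-GOGAT2 (0.0618) lost, and GS1;1 was lost at 11 °C (0.0637). Leaving out a library gave 6 to 7 genes called at 11 °C, 4 to 6 at 13 °C and 5 to 6 between them. Over all loci at 11 against 13 °C it gave 4109 to 6976 calls, against 6884, with 4109 without replicate 2 at 11 °C and 4537 and 4249 without replicates 1 and 2 at 13 °C. Differences that changed sign were not called in any of these fits. NADH-GOGAT1 at 13 against 25 °C was -0.11 under TMM-type scaling and 0 under quantile scaling, and -0.18 to 0.32 with a library left out. At 11 against 13 °C, Fd-GOGAT was 0.12 under quantile scaling and -0.39 to 0.16 with a library left out, GS1;1 -0.71 to 0.24 and GS1;2 -0.41 to 0.23. The causes of these changes were not tested.

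With a replicate block, 11351 loci were called at 11 against 13 °C, against 6884 without it. In the 3 comparisons, 8, 7 and 6 of the 9 genes were called, GS1;2 being added at 11 °C (adjusted p = 0.00362) and 13 °C (0.00839). The share of all loci called under the block in the comparisons with 25 °C is not given here. These added calls therefore cannot be read against it. Among other loci of the same enzymes, 4 rather than 1 were then called at 13 °C. Differences between replicates 1 and 2 correlated at 0.61 to 0.71 between temperatures across loci, but the labels do not say that a number marks a shared batch. With 2 libraries per temperature the spread is estimated mostly from all loci together, and levels from under 20 reads, such as those of the nitrate reductase gene at 11 and 25 °C, limit any fold change.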
